A study of Mus musculus with 36 samples.

Results

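The genes described here are 30 genes known as markers of the inner retinal neurons: 7 of bipolar cells, 7 of amacrine cells, 5 of horizontal cells and 11 of retinal ganglion cells. They were taken by symbol from the 22558 genes of the table labelled liver, whose libraries carry the RNA of retina. Bipolar cells carry the signal of the photoreceptors to the ganglion cells. Amacrine and horizontal cells shape that signal, mostly by inhibition, and ganglion cells send it along the optic nerve to the brain. All 30 genes passed the filter on low values, set at an average of 0.5 FPKM (fragments per kilobase of transcript, scaled to library size, so a level per length), which 13779 genes passed in all.

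C57BL/6 mice were given PBS, the control, or DMOG or roxadustat, and 6 libraries of each treatment carry the label liver. DMOG, an ester of a 2-oxoglutarate analogue, and roxadustat both inhibit the prolyl hydroxylases that mark the hypoxia-inducible factor HIF for destruction. Dose, route, time, age and sex are not given by the labels, so nothing can be said of matched doses of the drugs. Nor do the labels say that replicates are separate animals, so the p-values reflect only how these libraries vary, which may be partly technical. By Xist and Y-linked genes, PBS 1, 4 and 5, DMOG 1 and 2, and roxadustat 2, 3 and 5 read as female. The others read as male, so the libraries of a group were not all from a single animal.

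The tissue label was checked against defining genes. Rod arrestin Sag stood between 2166 and 3683 FPKM in the libraries labelled liver, and between 0.0392 and 0.473 in the 18 labelled retina. Apoa1, an apolipoprotein made by hepatocytes, stood between 0.0366 and 0.516 FPKM in the libraries labelled liver and between 6299 and 12786 in those labelled retina. The libraries labelled liver are therefore described as retina RNA, under their labelled treatments. HIF targets served as the check that the drugs acted: 5 of 19 tested were called higher with DMOG and 14 of 19 with roxadustat (limma, adjusted p under 0.05). Egln1, a HIF prolyl hydroxylase that HIF itself induces, stood between 22.9 and 24.96 FPKM with PBS, between 25.3 and 31.6 with DMOG and between 40.0 and 52.6 with roxadustat. It was called with roxadustat (limma adjusted p = 1.172e-07) and not with DMOG (0.0660).

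The promoters of the ganglion genes are shown first, because these genes stood high together in a single library. RefSeq windows of GRCm38.p6 were found for 23 of the 30 genes, 35 windows in all, and the 250 bases before each start were searched on both strands. Onecut2, Calb1, Rbpms, Nefl, Nefm, Nefh and Thy1 had no window. Pou4f1, Pou4f2, Sncg, Slc17a6 and Isl2 are the ganglion genes with a window that were highest in PBS replicate 1, Isl1 is the ganglion gene that was not, and Cabp5 is a bipolar gene for comparison. Capitals mark ACGTG or GCGTG (the letters of the HIF core), TAATCC (the core read by OTX factors), TAATTA (a homeodomain core) and GCCNNNGGC (an AP-2 core), or their reverse complements. The deposited values are on mm9, so no value is placed on these coordinates.
Pou4f1 (chr14:104468000-104468249, minus strand): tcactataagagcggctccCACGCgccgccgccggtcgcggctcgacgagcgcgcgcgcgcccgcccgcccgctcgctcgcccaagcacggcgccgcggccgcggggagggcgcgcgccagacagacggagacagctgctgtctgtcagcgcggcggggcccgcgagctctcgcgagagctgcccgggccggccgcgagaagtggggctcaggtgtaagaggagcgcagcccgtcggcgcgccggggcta
Pou4f2 (chr8:78436648-78436897, minus strand): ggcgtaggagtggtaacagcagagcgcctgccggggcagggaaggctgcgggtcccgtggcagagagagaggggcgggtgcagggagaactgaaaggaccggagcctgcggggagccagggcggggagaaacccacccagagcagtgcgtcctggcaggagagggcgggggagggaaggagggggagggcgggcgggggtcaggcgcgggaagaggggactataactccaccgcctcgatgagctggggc
Sncg (chr14:34374670-34374919, minus strand): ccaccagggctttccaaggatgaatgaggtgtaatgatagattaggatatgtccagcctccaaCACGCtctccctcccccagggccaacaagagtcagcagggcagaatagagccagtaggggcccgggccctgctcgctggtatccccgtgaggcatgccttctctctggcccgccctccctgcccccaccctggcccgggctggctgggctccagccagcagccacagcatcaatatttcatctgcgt
Slc17a6 (chr7:51621580-51621829, plus strand): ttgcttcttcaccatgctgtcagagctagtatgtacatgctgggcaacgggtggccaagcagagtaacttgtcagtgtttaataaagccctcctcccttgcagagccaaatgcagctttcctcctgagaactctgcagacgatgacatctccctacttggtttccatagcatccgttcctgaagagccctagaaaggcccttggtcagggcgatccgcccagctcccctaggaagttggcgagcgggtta
Isl2 (chr9:55540899-55541148, plus strand): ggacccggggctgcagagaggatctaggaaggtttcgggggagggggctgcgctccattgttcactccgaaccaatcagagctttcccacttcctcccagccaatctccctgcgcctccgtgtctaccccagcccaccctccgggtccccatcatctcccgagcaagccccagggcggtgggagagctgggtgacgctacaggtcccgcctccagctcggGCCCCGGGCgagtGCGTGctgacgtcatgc
Isl1 (chr13:116309689-116309938, minus strand): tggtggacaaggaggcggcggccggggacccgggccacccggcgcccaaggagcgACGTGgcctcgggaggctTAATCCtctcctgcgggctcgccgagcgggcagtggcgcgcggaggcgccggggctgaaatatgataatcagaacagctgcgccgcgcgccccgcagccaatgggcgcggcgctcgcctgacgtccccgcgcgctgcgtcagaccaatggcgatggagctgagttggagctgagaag
Cabp5 (chr7:13397905-13398154, plus strand): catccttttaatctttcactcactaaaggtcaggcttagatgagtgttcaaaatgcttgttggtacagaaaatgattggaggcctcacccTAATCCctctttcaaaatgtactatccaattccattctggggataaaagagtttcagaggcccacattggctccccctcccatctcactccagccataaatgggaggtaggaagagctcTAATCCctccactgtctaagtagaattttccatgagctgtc

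These windows share few of the letters searched. Pou4f1, Sncg and Isl2 each hold 1 GCGTG, while the windows shown for Pou4f2 and Slc17a6 hold none of the 5 motifs. ACGTG was found in 5 of the 35 windows of the 30 genes (14.3%) and in 16.6% of all 32851 mouse windows of the same length. GCGTG was in 13 of the 35 (37.1%) and in 28.2% of all windows. TAATCC, the core that Otx2 and its relative Crx read, was in 5 windows (14.3%, against 6.25% of all). They were windows of Cabp5, Otx2 and Trpm1 of the 7 bipolar genes, of the amacrine gene Gad1 and of the ganglion gene Isl1. Cabp5 holds 2 copies in the window shown. TAATTA was in 5 windows (14.3%, against 4.84% of all) and GCCNNNGGC in 5 (14.3%, against 13.7% of all). Windows of 1 gene overlap, as the 4 of Pcp2 do, and ACGTG and GCGTG can share letters. A match is a description of letters, not a site.

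Levels of the 30 genes spanned a wide range, and levels are compared between genes here as FPKM, which are per length. Neurofilament light chain Nefl was the highest, with a median of 235 FPKM over the 18 libraries (140 to 496). It was followed by the bipolar genes Pcp2, a G-protein regulator of rod bipolar cells, at 211 (137 to 256) and Otx2, a transcription factor also made by photoreceptors, at 182 (126 to 219). Synuclein gamma Sncg had a median of 119.9 FPKM and the homeobox gene Isl1, made by ganglion cells and also by bipolar and starburst amacrine cells, one of 106. The horizontal cell transcription factors other than Prox1 (34.3) stood at the other end: Onecut1 at 1.23, Lhx1 at 1.02 and Onecut2 at 0.748 FPKM. Of the 29 neighbouring pairs in this order, 28 overlapped in range. The exception was Isl2 (7.35 to 13.96) above the GABA-synthesising enzyme Gad2 (3.35 to 6.28).

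**Figure D1:**
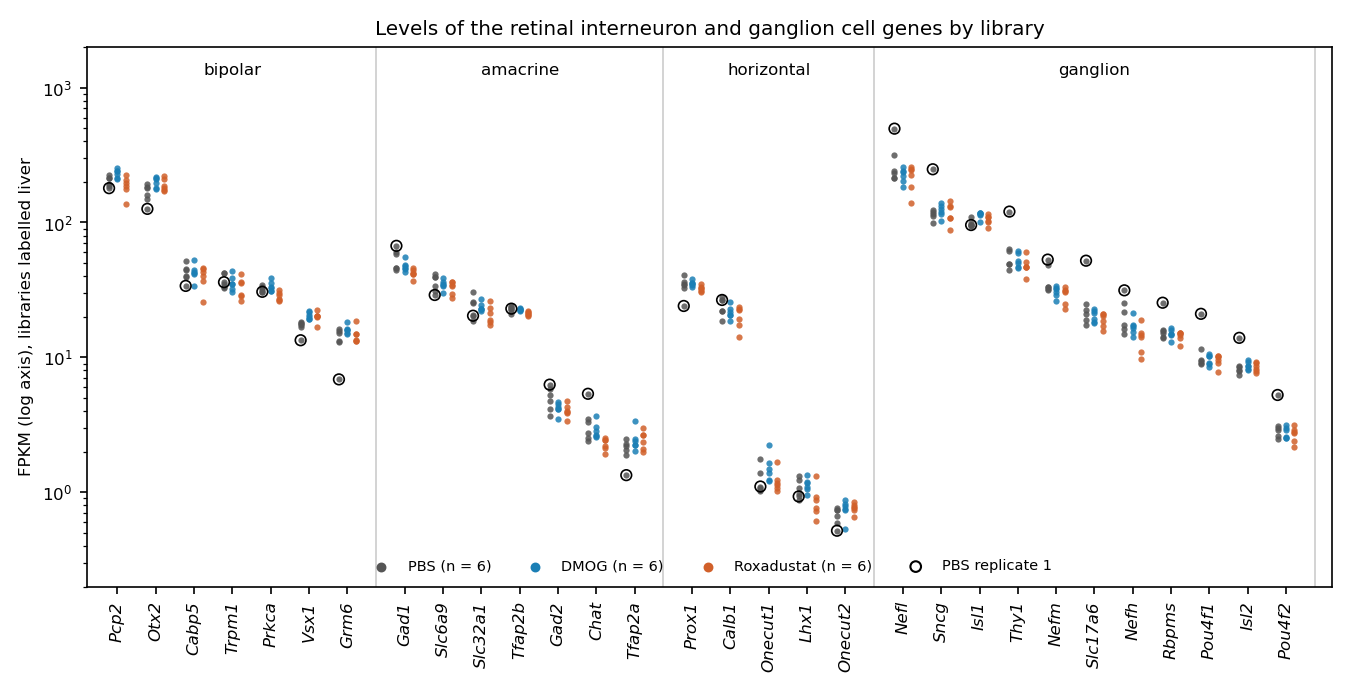
FPKM on a log axis for each of the 30 genes, ordered by median within its cell class; each point is 1 of the 18 libraries labelled liver (6 per treatment), and open circles mark PBS replicate 1. The circle is the highest point for 10 of 11 ganglion genes and lies lowest for Vsx1, Otx2 and Grm6 among the bipolar genes.

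Most of these genes were close to 0 in the liver RNA of the libraries labelled retina, with 7 exceptions. Those libraries were tabled apart, so levels across the tables are only roughly comparable. The RNA-binding protein Rbpms, used as a general ganglion cell marker, had a median of 18.1 FPKM there against 15.1 in retina RNA. Prox1, a transcription factor of horizontal cells and AII amacrine cells that hepatocytes also make, stood at 20.3 in liver RNA and 34.3 in retina RNA. Onecut2 and Onecut1, which are hepatocyte nuclear factors as well, were higher in the liver RNA (10.9 and 6.29) than in the retina RNA. Thy1 (2.71), the glycine transporter Slc6a9 (2.69) and protein kinase C alpha Prkca (2.62) had low medians in liver RNA. Prkca overlaps Apoh, and Slc6a9 overlaps B4galt2 and Ccdc24, on the opposite strand in the GENCODE annotation. In all, 11 of the 30 genes overlap a gene on the opposite strand (Grm6, Trpm1, Prkca, Pcp2, Otx2, Slc6a9, Slc32a1, Tfap2a, Prox1, Nefl and Nefm) and Onecut1 one on its own strand. Whether the authors counted by strand is not given in the sources used here, so reads of such genes and of their partners could not be fully told apart. The other 23 genes had medians of at most 0.195 FPKM there, and Otx2, Vsx1, Cabp5, Pou4f2 and Chat were listed at 0 in all 18 libraries.

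**Figure D2:**
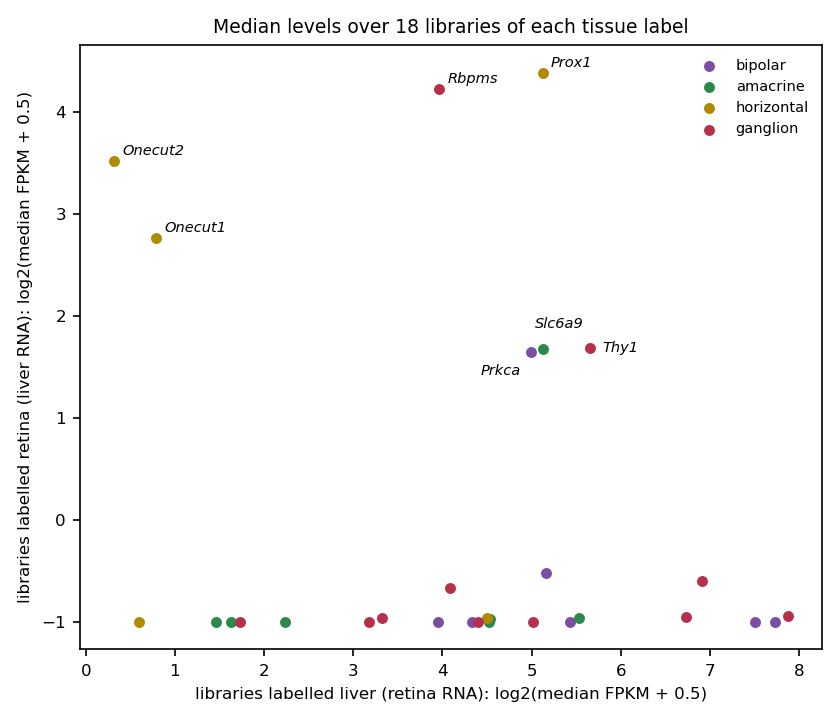
Median level of each of the 30 genes over the 18 libraries labelled liver (x axis) and the 18 labelled retina (y axis), as log2(median FPKM + 0.5). The 7 named genes lie above the rest on the y axis, led by Prox1 and Rbpms.

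PBS replicate 1 stood apart from the other libraries. It was the highest of the 18 libraries for 13 of the 30 genes and the lowest for 6, while it was the highest for 20.6% and the lowest for 24.7% of all 13779 genes tested. Among ganglion genes it was the highest for 10 of 11. Slc17a6, the vesicular glutamate transporter of ganglion cells, read 52.1 FPKM there and 15.6 to 25.1 (median 20.2) in the other 17 libraries. Thy1, a surface glycoprotein of ganglion cells, read 120 against 38.3 to 63.1. The POU transcription factor Pou4f1 (Brn3a) read 21.0 against 7.80 to 11.5. All these genes were therefore beyond the range of every other library.

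The remaining ganglion genes behaved likewise in that library, except for Isl1. Nefl read 496 FPKM against 140 to 318 elsewhere, and Sncg 248 against 87.5 to 145. Pou4f2 (Brn3b), the factor that sets ganglion cell fate, read 5.26 against 2.17 to 3.17. Rbpms read 25.4 against 12.2 to 16.6. The LIM homeobox gene Isl2 read 13.96 against 7.35 to 9.54. The heavy and medium neurofilament chains were nearer to the rest: Nefh read 31.4 against 9.75 to 25.3, and Nefm 53.1 against 22.8 to 48.1. Isl1 read 95.8 FPKM, within the 91.7 to 118 of the other libraries.

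Members of the other classes also differed in PBS replicate 1, in both directions. Choline acetyltransferase Chat, the enzyme of the starburst amacrine cells, read 5.37 against 1.91 to 3.65, and the GABA enzymes Gad1 (67.1 against 37.0 to 60.3) and Gad2 (6.28 against 3.35 to 5.85) were highest there too. The glutamate receptor of ON bipolar cells, Grm6, read 6.87 against 12.9 to 18.7, and the cone bipolar factor Vsx1 13.4 against 16.7 to 22.3. Otx2 (126 against 150 to 219), the AP-2 factor Tfap2a (1.34 against 1.89 to 3.36), Prox1 (24.0 against 30.7 to 40.5) and Onecut2 (0.519 against 0.539 to 0.883) were lowest there. By a margin of 1.5-fold, PBS replicate 1 exceeded every other library in 7 of the 30 genes and lay under every other library in 1, Grm6. Over the 11746 genes averaging 2 FPKM or more, it exceeded all others by that margin in 111 and lay under them in 111, and no other library had more than 16 or 26.

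Of 9 ratios between related genes, 5 lay outside the range of the other libraries in PBS replicate 1 and 4 inside it. Trpm1, the channel that Grm6 signals to, stood at 5.26 times the level of Grm6 in PBS replicate 1 and at 1.91 to 2.78 times in the others. Isl1 to Isl2 was 6.86 there and 10.9 to 14.3 elsewhere. Nefl to Nefm (9.35 against 6.16 to 7.90) and Tfap2b to Tfap2a (17.1 against 6.97 to 11.2) were highest there. Slc17a6 to Slc32a1, the vesicular transporter of GABA and glycine, was 2.56 there and 0.692 to 1.14 elsewhere. Gad1 to Gad2, by contrast, was 10.7 there, inside the 9.66 to 12.4 of the other libraries, and the ratios of Onecut1 to Onecut2, Pou4f1 to Pou4f2 and Nefm to Nefh lay inside as well.

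Of the other lists of retinal genes, some stood high in PBS replicate 1 and some did not. As a median over the list of log2(FPKM + 0.5) minus each gene's 18-library median, the 11 ganglion genes lay at 0.92 and a further 20 tested ganglion genes at 0.68, with 16 of the 20 highest in this library. Named after their values were seen, Chrna6, a nicotinic receptor subunit, read 77.0 FPKM against 22.3 to 41.9, and the sodium channel Scn1a 12.04 against 3.09 to 6.54. Tbr1, a factor of a ganglion cell subset, did not follow, at 0.495 against 0.395 to 0.658. Axon genes lay at 0.51 (10 of 14 highest), inhibitory receptor genes at 0.41 (10 of 16) and glutamate receptor genes at 0.39 (8 of 13). Further amacrine genes lay at 0.24 (12 of 26). Further bipolar genes (0.00), further horizontal genes (0.04), axon injury genes (-0.02) and synaptic vesicle genes (-0.10, with 6 of 18 lowest and 4 highest) lay near 0.

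Markers of other cells stood off as well in PBS replicate 1. Pericyte markers lay at 0.70 (4 of 5 highest; summed level 78.4 FPKM, 26.03 to 50.2 in the other libraries), astrocyte markers at 0.65 (2 of 3; Gfap, the exception, 16.0 FPKM, others 7.32 to 20.5; Pax2 0.0734) and endothelial markers at 0.58 (6 of 8; 95.5, others 63.5 to 90.4). Microglial markers lay at 0.42 (5 of 8). Lens markers lay at 4.71, within the 1.52 to 5.27 of the other PBS libraries. Rod markers lay at -0.37, with 7 of 11 lowest, and cone markers at -0.41, with 6 of 9 lowest. The share of these cells in the differences of the ganglion genes was not tested. In bulk RNA, more cells of a type and more RNA per cell cannot be told apart.

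**Figure D3:**
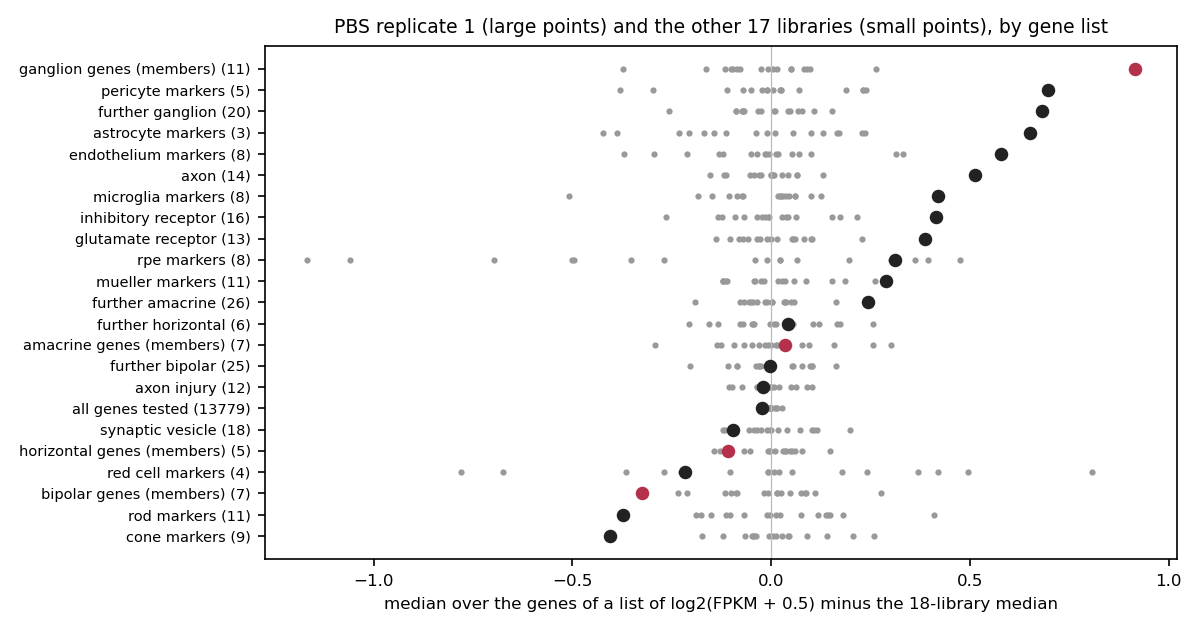
Median deviation of each gene list drawn from its 18-library median, in log2(FPKM + 0.5), for PBS replicate 1 (large points, red for the classes of the 30 genes) and the other 17 libraries (small grey points); numbers in brackets are genes tested. Lens markers, HIF targets and lists with very few genes tested are not drawn. The ganglion genes of PBS replicate 1 lie at 0.92 and rod and cone markers at -0.37 and -0.41.

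Roxadustat replicate 1 lay at the other end. It was the lowest library for 18 of the 30 genes, 9 of them ganglion genes, while it was the lowest for 10.5% of all genes tested. Its ganglion class median was -0.37, against -0.16 to 0.26 in the libraries other than PBS replicate 1. Nefl read 140 FPKM there and 183 to 258 in the other roxadustat libraries. Microglial markers were also lowest there, at -0.51, and lens markers, at 4.15, were high as in the PBS libraries (1.52 to 5.27). Several estimates and medians against PBS moved by over 1.5-fold or changed sign without PBS replicate 1. Many of these, though not all, are therefore given both ways below. Without roxadustat replicate 1, the median log2 fold change of the 30 genes with roxadustat against PBS was -0.13 in place of -0.17. Of the 30, 22 then lay below 0 in place of 24. The bipolar median went from -0.11 to 0.00, the amacrine from -0.16 to -0.14, the horizontal from -0.04 to -0.05 and the ganglion from -0.22 to -0.17.

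**Figure D4:**
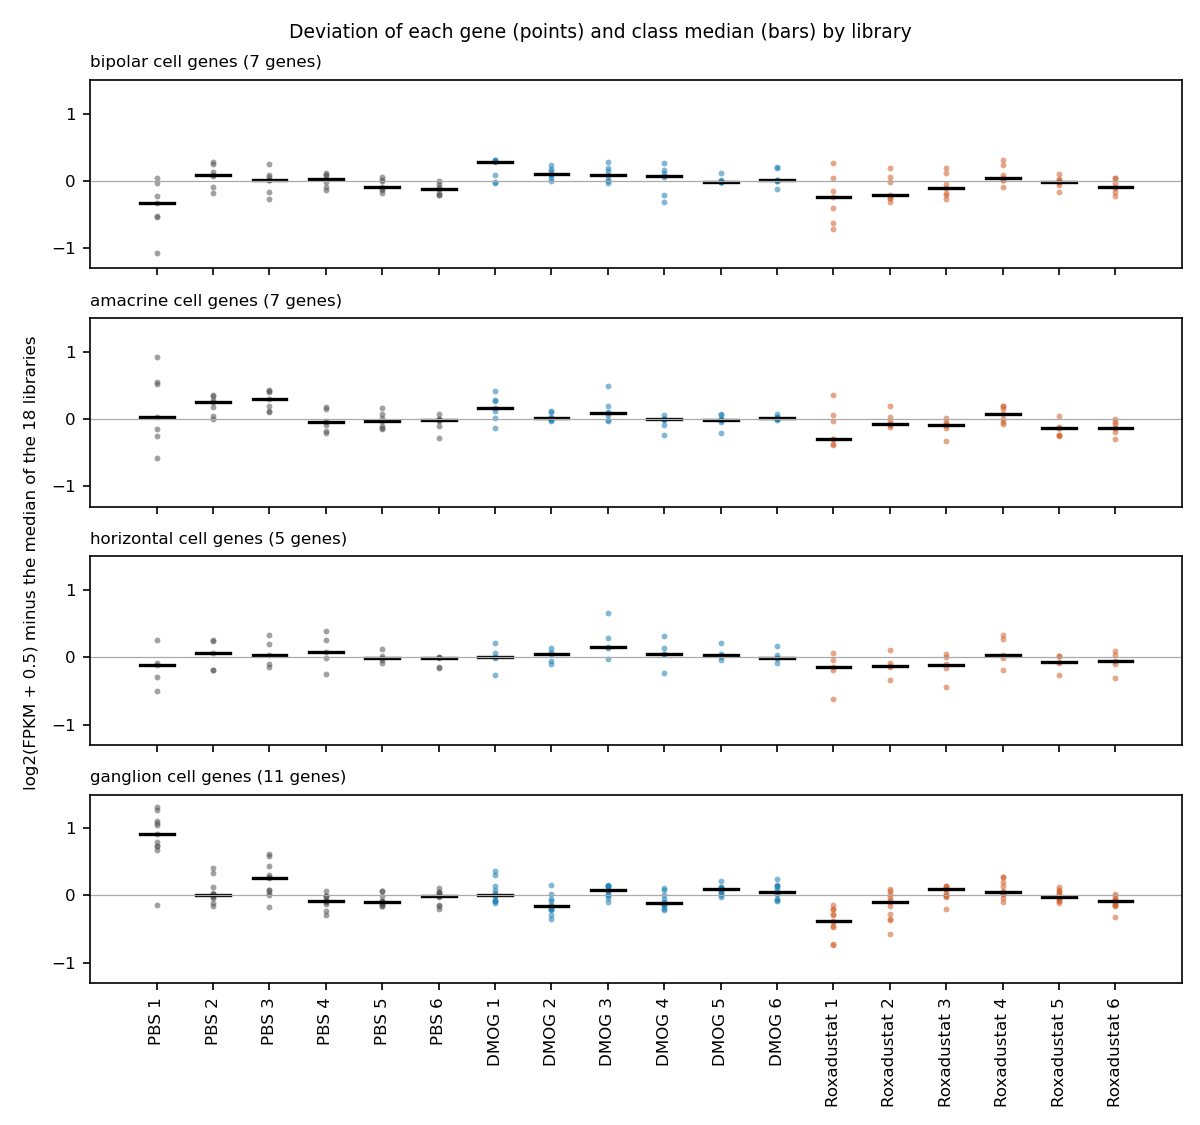
Deviation from the 18-library median, in log2(FPKM + 0.5), of each gene (points) and the class median (black bars) in each of the 18 libraries, by cell class. PBS replicate 1 has the highest ganglion bar, at 0.92, and roxadustat replicate 1 the lowest, at -0.37.

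None of the 30 genes was called in any of the 3 comparisons. The test was limma on log2(FPKM + 0.5), fitted to all 18 libraries and all 13779 genes, two-sided, with Benjamini-Hochberg adjusted p under 0.05 as the call. Over all genes tested, 1.07% were called with DMOG against PBS, 2.34% with roxadustat against PBS and 1.31% with roxadustat against DMOG. At an unadjusted p under 0.05, 5 of the 30 passed with DMOG (16.7%, against 13.7% of all genes), 10 with roxadustat (33.3%, against 17.5%) and 6 between the drugs (10.9% of all genes). The comparisons with PBS share their controls. A miss does not show equal levels: the 95% intervals of all 30 genes lay inside a 2-fold change in either direction in each comparison, and 25, 24 and 29 of the 30 lay inside 1.5-fold. Alternative fits, with other settings or with libraries left out, gave 833 results for these genes in each comparison. Calls made up 5 of them with DMOG (2 genes), 7 with roxadustat (4 genes) and 4 between the drugs (1 gene). The calls in alternative fits named below for these genes are those few.

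Few of the 30 genes had groups that did not overlap. Vsx1 alone was apart between DMOG and PBS, where 1.16% of all genes tested were. No member was apart between roxadustat and PBS (1.94% of all). Tfap2b and Chat were apart between the drugs (1.95% of all).

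**Figure D5:**
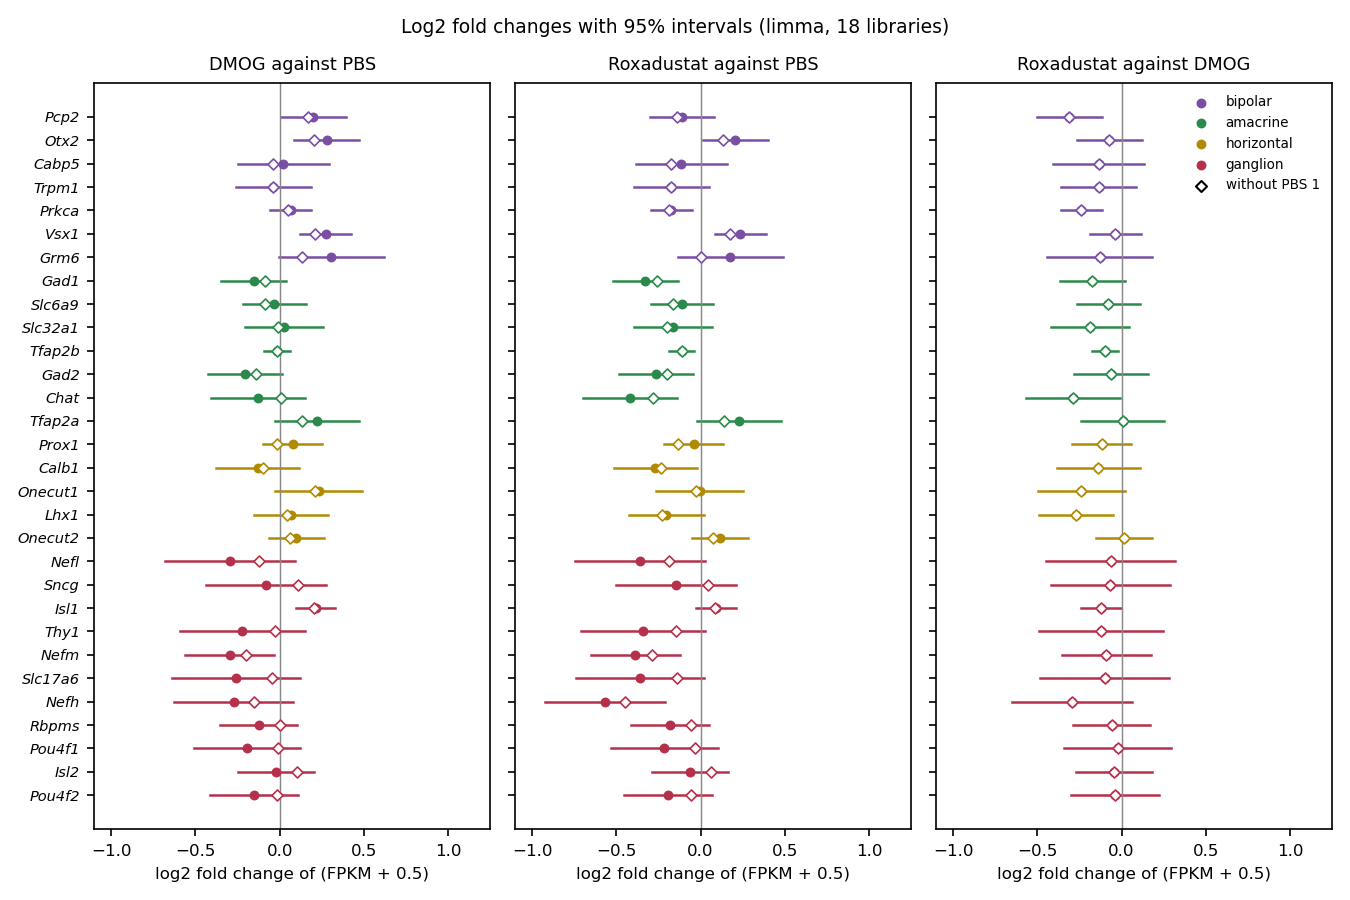
Log2 fold change of (FPKM + 0.5) with its 95% interval for each of the 30 genes in the 3 comparisons (limma, 18 libraries, 6 per group); colours are cell classes and open diamonds the fit without PBS replicate 1. No gene was called. Ganglion genes have the widest intervals by class median (standard error 0.151). This holds in each comparison, since the groups share an estimate of the spread. In the comparisons with PBS, the diamonds of most ganglion genes lie nearer to 0.

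Bipolar genes leaned upward with DMOG, 6 of 7 above 0 with a median log2 fold change of 0.20 (0.01 over all genes), and none was called. Vsx1 stood at 13.4 to 18.3 FPKM (median 17.5) with PBS, 19.3 to 21.9 (20.3) with DMOG and 16.7 to 22.3 (20.2) with roxadustat. All 6 DMOG libraries lay above all 6 PBS libraries, while roxadustat replicate 6 lay among the PBS libraries. Its log2 fold change was 0.27 ± 0.07 (SE, n = 6 per group) with DMOG (limma adjusted p = 0.0779) and 0.24 ± 0.07 with roxadustat (adjusted p = 0.0906). It was called with DMOG without PBS replicate 4 (adjusted p = 0.0487) and with roxadustat without roxadustat replicate 6 (0.0271). Without PBS replicate 1, the class median with DMOG was 0.13.

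Otx2 showed a like order with overlap. It stood at 126 to 193 FPKM (median 171) with PBS, 178 to 217 (203) with DMOG and 171 to 219 (183) with roxadustat. The log2 fold change with DMOG was 0.28 ± 0.09 (limma adjusted p = 0.168). PBS replicates 1 to 3 were the lowest of the 18 libraries and PBS replicates 4 to 6 lay among the treated ones.

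All 7 bipolar genes had a negative log2 difference between roxadustat and DMOG, and none was called. Prkca, the classical stain for rod bipolar cells, stood at 30.4 to 34.3 FPKM (median 32.0) with PBS, 30.9 to 38.7 (32.8) with DMOG and 26.2 to 31.7 (28.1) with roxadustat. Roxadustat replicate 4, at 31.7 FPKM, was the only one of its group within the DMOG range. The log2 difference between the drugs was -0.24 ± 0.06 (limma adjusted p = 0.0511). It was called without PBS replicate 1 (adjusted p = 0.0409), without DMOG replicate 5 (0.0386), without roxadustat replicate 4 (0.0247) and among genes of at least 5 FPKM (0.0488).

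The other bipolar genes overlapped in all 3 groups. Pcp2 stood at 180 to 224 FPKM with PBS, 209 to 256 with DMOG and 137 to 224 with roxadustat, a log2 difference between the drugs of -0.31 ± 0.09 (limma adjusted p = 0.139). Grm6 had an estimate of 0.31 ± 0.15 with DMOG, which became 0.13 without PBS replicate 1. Trpm1 (median 35.1 FPKM over the 18 libraries) and the calcium-binding protein Cabp5 (42.6) had adjusted p-values of at least 0.423 (limma) in the comparisons with PBS. A further 25 tested bipolar genes held no call with DMOG and 1 with roxadustat: the potassium channel subunit Kcng4, which stood at 8.99 to 14.4 FPKM with PBS and 4.44 to 10.04 with roxadustat, fell by 0.65 ± 0.16 on the log2 scale (limma adjusted p = 0.0404), and its groups overlapped. That call was lost in 14 of 28 alternative fits (limma adjusted p of at most 0.107), 9 of which each left out 1 library: PBS 1, 2 or 3, DMOG 2 or 6, or roxadustat 1, 2, 3 or 5. Of 11 rod markers, none was called in any comparison.

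Amacrine genes leaned downward with roxadustat, 6 of 7 below 0 with a median of -0.16 (all genes 0.00, with 50.4% below 0), and none was called. Gad1, the GABA-synthesising enzyme GAD67, read 67.1, 58.1, 60.3, 44.2, 46.3 and 45.7 FPKM in PBS replicates 1 to 6. With DMOG it stood at 43.2 to 55.7 (median 46.8) and with roxadustat at 37.0 to 45.7 (42.0). PBS replicates 1 to 3 lay above all other libraries, while PBS replicates 4 and 6 lay within the roxadustat range. The log2 fold change was -0.33 ± 0.09 with roxadustat (limma adjusted p = 0.0671) and -0.15 ± 0.09 with DMOG (adjusted p = 0.461), the latter -0.09 without PBS replicate 1. Leaving out PBS replicate 4, 5 or 6, the low controls, widened the difference and brought the roxadustat estimate to a call (adjusted p = 0.0295, 0.0435 and 0.0430). Without PBS replicate 1, the highest control, that estimate was -0.26 (limma adjusted p = 0.111).

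Chat and Tfap2b were the only members whose roxadustat and DMOG libraries did not overlap, and neither was called between the drugs. Chat stood at 2.39 to 5.37 FPKM (median 3.04) with PBS, 2.59 to 3.65 (2.76) with DMOG and 1.91 to 2.52 (2.33) with roxadustat. Every roxadustat library lay below every DMOG library, and of the PBS libraries only replicate 5 lay among them. The log2 difference was -0.42 ± 0.13 against PBS (limma adjusted p = 0.102) and -0.29 ± 0.13 against DMOG (adjusted p = 0.427). PBS replicate 1 enters the shared spread of the fit, and without it the difference from DMOG was -0.29 ± 0.09 (limma adjusted p = 0.137). The Chat estimate of DMOG against PBS went from -0.13 to 0.01 without that library. Tfap2b, an AP-2 factor of amacrine and horizontal cells, was the steadiest of the 30 genes, with a coefficient of variation of 4.90% over the 18 libraries. It stood at 21.1 to 24.2 FPKM with PBS, 22.2 to 23.4 with DMOG and 20.4 to 22.04 with roxadustat, a log2 difference of -0.11 ± 0.04 from PBS (limma adjusted p = 0.104) and -0.10 ± 0.04 from DMOG (0.279). Without PBS replicate 4 the first was called (adjusted p = 0.0375).

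The remaining amacrine genes overlapped in every comparison. Gad2, the enzyme GAD65, had a median of 5.01 FPKM with PBS, 4.24 with DMOG and 3.96 with roxadustat (limma adjusted p = 0.185 for roxadustat). Slc32a1 had 22.9, 22.7 and 20.1, and Slc6a9, which marks glycinergic amacrine cells, 36.6, 34.9 and 34.1. Tfap2a had 2.13, 2.32 and 2.49 FPKM, with estimates of 0.22 ± 0.12 for DMOG and 0.23 ± 0.12 for roxadustat, which became 0.13 and 0.14 without PBS replicate 1.

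Of 26 further amacrine genes tested, 2 neuropeptide genes rose with roxadustat and none was called lower, while 21 of the 26 estimates lay below 0 at a median of -0.07 (18 of 26 and -0.03 without PBS replicate 1). Penk, the enkephalin precursor, stood at 4.16 to 14.5 FPKM (median 9.06) with PBS, 5.11 to 11.4 (7.19) with DMOG and 12.6 to 19.2 (17.3) with roxadustat. The roxadustat libraries lay above all others except PBS replicate 1, at 14.5. Its log2 fold change was 1.04 ± 0.24 against PBS (limma adjusted p = 0.0244) and 1.12 ± 0.24 against DMOG (0.0202). Npy, neuropeptide Y, stood at 71.8 to 106 FPKM with PBS and 105.4 to 133 with roxadustat, a log2 fold change of 0.39 ± 0.10 (limma adjusted p = 0.0396). The lowest roxadustat library lay just under the highest PBS library. The Npy call was lost in 14 of 28 alternative fits (limma adjusted p of at most 0.106), among them those without PBS 1, 2 or 3, DMOG 2 or 6, or roxadustat 2, 3 or 4. The Penk call was lost in 6 of 28 in each comparison (at most 0.0930 against PBS and 0.185 against DMOG): without roxadustat 2, 3 or 5 against PBS, without DMOG 2 or 4 or roxadustat 2 or 5 against DMOG, and in both with a replicate block or without PBS 6, DMOG 2 and roxadustat 5 together. Against PBS it was also lost in a fit to those 2 groups alone.

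Receptors for the transmitters of these cells were described from fixed lists. All 16 inhibitory receptor genes (GABA and glycine receptor subunits and gephyrin) lay below 0 with roxadustat, with a median of -0.23, and 9 had an unadjusted p under 0.05, but none was called (smallest limma adjusted p = 0.0520). By library, the list median lay at -0.26 to 0.03 with roxadustat, at 0.41 in PBS replicate 1 and at -0.09 to 0.21 in the other PBS libraries, so these groups overlapped. Without PBS replicate 1, 14 of 16 lay below 0 with roxadustat, with a median of -0.15, and 7 had an unadjusted p under 0.05. Of 13 glutamate receptor genes, 11 lay below 0 with roxadustat, with a median of -0.20. Of the 13, 9 had an unadjusted p under 0.05, and none was called (smallest limma adjusted p = 0.0509). Without PBS replicate 1, 10 of 13 lay below 0, with a median of -0.13, and 5 had an unadjusted p under 0.05. With DMOG, 1 of the 13 was called: Grm8, a presynaptic receptor, stood at 6.46 to 8.03 FPKM with PBS and 5.93 to 6.64 with DMOG, and fell by 0.24 ± 0.06 on the log2 scale (limma adjusted p = 0.0440). That call was lost in 18 of 28 alternative fits (limma adjusted p of at most 0.182), among them those without PBS 1, 2, 3 or 6, DMOG 2, 4, 5 or 6, or roxadustat 2, 3, 5 or 6. None of 18 synaptic vesicle genes was called in any comparison.

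Of the horizontal cell genes, 4 of 5 lay above 0 with DMOG at a median of 0.08, and 4 of 5 below 0 with roxadustat at a median of -0.04. Without PBS replicate 1 the median was 0.04 with DMOG, 3 of 5 above 0, and -0.13 with roxadustat, 4 of 5 below 0. The calcium-binding protein calbindin, Calb1, stood at 18.5 to 27.9 FPKM (median 24.4) with PBS, 18.7 to 25.7 (21.3) with DMOG and 14.2 to 23.6 (20.8) with roxadustat, a log2 fold change of -0.27 ± 0.12 with roxadustat (limma adjusted p = 0.243). As with Gad1, PBS replicates 1 to 3 and DMOG replicate 1 were the 4 highest libraries, at 26.7, 26.6, 27.9 and 25.7 FPKM.

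The transcription factors of horizontal cells other than Prox1 were near the 0.5 FPKM added before taking logs. Lhx1 stood at 0.871 to 1.31 FPKM with PBS, 0.956 to 1.35 with DMOG and 0.617 to 1.33 with roxadustat. Its log2 difference between the drugs was -0.27 ± 0.11 (limma adjusted p = 0.328). Onecut1 had medians of 1.09, 1.45 and 1.15 FPKM and Onecut2 of 0.702, 0.771 and 0.767. Fold changes are understated at such levels. Prox1, the highest of the class, had medians of 34.8, 35.3 and 32.4, and its estimate with DMOG changed sign without PBS replicate 1 (from 0.08 to -0.02). Of 6 further horizontal genes tested, none was called in any comparison.

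Ganglion genes leaned downward in both comparisons with PBS, 10 of 11 below 0 each time, and most of the lean was gone without PBS replicate 1. With all libraries the class median was -0.19 with DMOG and -0.22 with roxadustat, and without that library -0.02 and -0.06. The number below 0 then became 7 and 8 of 11. The median standard error of the class went from 0.151 to 0.0955, and no ganglion gene was called with or without it.

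The neurofilament genes encode the light, medium and heavy chains of the axonal skeleton. Nefh stood at 14.985 to 31.4 FPKM (median 19.6) with PBS, 14.2 to 21.4 (16.8) with DMOG and 9.75 to 19.0 (14.5) with roxadustat. Roxadustat replicates 1 and 2, at 9.75 and 10.9, were the lowest of all libraries, and PBS replicates 1 to 3 with DMOG replicate 1 the highest. The log2 fold change with roxadustat was -0.57 ± 0.17 (limma adjusted p = 0.0843), the largest of the 30 genes, and -0.45 without PBS replicate 1. It was called without PBS replicate 5 (adjusted p = 0.0435) and without roxadustat replicate 4 (0.0459).

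Nefm and Nefl had smaller estimates. Nefm stood at 31.7 to 53.1 FPKM (median 33.2) with PBS, 25.97 to 33.8 (31.3) with DMOG and 22.8 to 33.0 (30.8) with roxadustat, with log2 fold changes of -0.30 ± 0.13 and -0.39 ± 0.13 (limma adjusted p = 0.307 and 0.110). PBS replicates 1 and 3 alone lay above all treated libraries. Nefl had medians of 238, 229 and 235 FPKM, and log2 fold changes of -0.29 ± 0.18 and -0.36 ± 0.18, which became -0.12 and -0.19 without PBS replicate 1. These 2 genes overlap each other on opposite strands.

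The ganglion cell transcription factors had like medians in all groups. Pou4f1 had medians of 9.49 FPKM with PBS, 9.68 with DMOG and 9.76 with roxadustat, and Pou4f2 of 2.94, 2.73 and 2.77. Isl2 had 8.25, 8.64 and 8.41. The 95% interval of the log2 fold change with roxadustat was -0.53 to 0.10 for Pou4f1 and -0.29 to 0.16 for Isl2. Without PBS replicate 1 the estimates were -0.03 ± 0.08 for Pou4f1 and 0.06 ± 0.06 for Isl2, the latter with a change of sign from -0.06.

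Isl1 took another course than the rest of its class. It stood at 94.0 to 110.8 FPKM (median 95.6) with PBS, 101.5 to 118 (116) with DMOG and 91.7 to 115 (106) with roxadustat. The PBS libraries lay between 94.0 and 98.8 except replicate 5, and the DMOG libraries between 114 and 118 except replicate 1. The log2 fold change with DMOG was 0.21 ± 0.06 (limma adjusted p = 0.0768), and 0.09 ± 0.06 with roxadustat. It was called without PBS replicate 5 (adjusted p = 0.0283), without DMOG replicate 1 (0.0334), without roxadustat replicate 1 (0.0428) and in the fit with a replicate block (0.0456).

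The other ganglion genes gave wide intervals through PBS replicate 1. Thy1 had medians of 55.7, 50.7 and 46.9 FPKM with PBS, DMOG and roxadustat, and Slc17a6 of 21.8, 20.3 and 19.4. Without PBS replicate 1 their log2 fold changes were -0.03 and -0.04 with DMOG, and -0.15 and -0.14 with roxadustat. Sncg had 118, 124 and 119.6, and its estimates changed sign without that library, from -0.08 to 0.11 with DMOG and from -0.15 to 0.04 with roxadustat. Rbpms had 15.3, 14.9 and 14.9 FPKM and its estimate with DMOG went from -0.12 to 0.00.

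Wider lists of ganglion and axon genes held few calls. None of 20 further ganglion genes and none of 14 axon genes was called in any comparison. Of 12 axon injury genes tested, Gal, the galanin precursor, was the only one called, and only with DMOG. It stood at 1.47 to 3.49 FPKM with PBS, 1.07 to 1.51 with DMOG and 1.35 to 2.13 with roxadustat, and fell by 0.64 ± 0.14 on the log2 scale with DMOG (limma adjusted p = 0.0386). Its DMOG and PBS libraries overlapped only slightly. The Gal call was lost in 14 of 27 alternative fits (limma adjusted p of at most 0.102), among them those without PBS 1, 2 or 3, DMOG 2, 4, 5 or 6, or roxadustat 2, 5 or 6.

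Between the drugs, 28 of the 30 genes had a log2 difference below 0, roxadustat minus DMOG, with a median of -0.11, and so did 54.9% of all genes tested. Without roxadustat replicate 1, 26 of 30 did, with a median of -0.07, and 8 of 11 ganglion genes in place of 11. All 7 bipolar genes stayed below 0, at a class median of -0.11 in place of -0.14. No class median exceeded 0.14 in size.

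Markers of other tissue parts differed between the groups beside these genes. All 10 lens markers were called lower with DMOG and 2 of 10, Crybb2 and Mip, with roxadustat; summed over the list they stood at 3088 to 33076 FPKM with PBS, 45.0 to 1475 with DMOG and 336 to 16547 with roxadustat. Of the cone markers, Opn1sw and Thrb were called higher with roxadustat, and of the Müller glia markers Crym was called higher with both drugs. Red cell markers summed to 10.9 to 20.1 FPKM with PBS, 23.7 to 48.3 with DMOG and 13.9 to 56.9 with roxadustat, so the PBS and DMOG libraries did not overlap. Of the 4 tested, the globin gene Hbb-b1, whose reads could be split with its near copy Hbb-b2, was called higher with roxadustat (limma adjusted p = 0.0360) and none was called with DMOG. Retinal pigment epithelium markers, 8 tested, were called in no comparison but leaned together. All 8 lay below 0 with DMOG against PBS (median -0.34), and 7 of 8 above 0 with roxadustat against PBS (median 0.18). Between the drugs all 8 lay above 0 (median 0.51), 5 of them at an unadjusted p under 0.05 (10.9% of all genes). The part of these cells in the values of the 30 genes was not tested. Each library held 16991 to 17424 genes above 0, and its values totalled between 542785 and 617853 FPKM. Relative depths were 0.827 to 0.897 for PBS, 0.939 to 1.28 for DMOG and 0.785 to 1.2045 for roxadustat, so every PBS library was shallower than every DMOG library. The part of depth in the values of the 30 genes was not tested.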

How the data were processed

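Total RNA of mice was extracted with RNeasy and sequenced with the TruSeq Stranded kit, ribosomal RNA being removed by Ribo-Zero Gold, per the labels' protocols. The deposited values are FPKM per gene and library, made by the authors with bcl2fastq 1.8.3, TopHat2 (version 2) and Cuffdiff 2.2.1 on mm9, per the submitters' processing notes. Scaling between libraries, annotation and counting by strand are not given in the sources used here. Each library has a column of its own, and no column lacked a sample. Groups follow the titles. Tfap2a, Tfap2b and Map1b are Tcfap2a, Tcfap2b and Mtap1b in the tables.

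Depth is not known from FPKM, so no counting interval is printed; relative depth came from the steps of low values. The 13779 of 22558 genes averaging 0.5 FPKM or more in the 18 libraries labelled liver were tested on log2(FPKM + 0.5) with limma 3.58.1 (R 4.3.3), empirical Bayes with a mean trend, 3 group means, 15 residual degrees of freedom and p-values adjusted by Benjamini-Hochberg over these genes. A fold change is on that scale and understates low genes. The procedure was tested on simulated data. The members and lists were chosen with earlier results of these data known. All 30 members are named, and of each other list at most 4 called genes with the smallest adjusted p per comparison with PBS, marker genes by level. Alternatives were the pseudocount, the filter, library scaling, only the groups compared, a replicate block, a sex term and leaving out libraries. Promoters are RefSeq windows of GRCm38.p6.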

Additional observations from a re-analysis of the deposited data

Results flagged for a closer look

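In 16 of the 90 groups of 6 libraries looked at (30 genes in 3 treatments), the highest or lowest library was separated from the next by more than 0.625 of the group's range, the limit of Dixon's test; chance alone gives about 1 group in 20, or 4.5 of 90. PBS replicate 1 accounted for 11 of them. It was the outlying high PBS library for Nefl (496 FPKM), Sncg (248), Thy1 (120), Slc17a6 (52.1), Rbpms (25.4), Pou4f1 (21.0), Isl2 (13.96), Pou4f2 (5.26) and Chat (5.37). It was the outlying low PBS library for Vsx1 (13.4 FPKM) and Grm6 (6.87). The 5 others were spread over libraries. Isl1 was high in PBS replicate 5 (110.8 FPKM) and low in DMOG replicate 1 (101.5). Grm6 was high in roxadustat replicate 4 (18.7), as was Onecut1 (1.68). Tfap2a was high in DMOG replicate 3 (3.36). The genes are not independent, since ganglion genes shared their outlying library.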

How the results depend on the processing

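All values rest on 6 libraries a group, whose origin from separate animals is not given, on FPKM without known depth, and on groups that also differ in lens and other markers. Over all genes tested, 147, 323 and 181 were called for DMOG against PBS, roxadustat against PBS and roxadustat against DMOG. Fits to only the 2 groups compared gave 94 and 190 for the comparisons with PBS, and 271 between the drugs, within 1.5-fold of the main count. Without the 3 libraries with the most signal of both sexes (Xist at 1.29 FPKM in the otherwise male PBS 6, summed Y-linked genes at 2.28 and 4.58 in the otherwise female DMOG 2 and roxadustat 5) the counts were 22, 183 and 92. Leaving out 1 library at a time gave 48 (without DMOG 4) to 420 (without PBS 4) for DMOG, 209 (without roxadustat 3) to 482 for roxadustat and 128 to 263 between the drugs. For DMOG the count also moved by over 1.5-fold without PBS 1 (78), PBS 2 (63), PBS 6 (76), DMOG 2 (62), DMOG 3 (274), DMOG 5 (71), DMOG 6 (61), roxadustat 2 (91) and roxadustat 5 (95), and for roxadustat without roxadustat 2 (211). The other settings (pseudocount, filter, scaling, replicate block, sex term) stayed within 1.5-fold. Among the 30 genes, 0 were called in the main fit. Their smallest limma adjusted p with DMOG was 0.0768 in that fit. It was 0.333 without PBS 6, DMOG 2 and roxadustat 5 together, and 0.177 without DMOG 2 alone. With DMOG, 1 was called higher (Isl1) in the fit with a replicate block, and 0 to 1 when a library was left out; the other comparisons kept 0 under the replicate block. With roxadustat 0 to 1 were called higher and 0 to 2 lower when a library was left out. Between the drugs 1 was called lower (Prkca) among genes of at least 5 FPKM, and 0 to 1 when a library was left out. The called values of Kcng4, Npy, Penk, Grm8 and Gal kept their direction in all settings, although each of those 5 lost its call in some. The 30 genes held no call in the main fit that could change direction. Some of their estimates changed sign without PBS replicate 1, among them Chat and Prox1 with DMOG, Sncg with both drugs and Isl2 with roxadustat. Whether replicate numbers pair the libraries is not given by the labels. Deviations of same-numbered libraries correlated at -0.25 to 0.33 (median 0.08, 18 pairs). Those of other pairs correlated at -0.37 to 0.44 (median -0.01, 90 pairs), so the ranges overlapped and do not settle it.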
